A study of Mus musculus with 4 samples.

Results

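The genes described here are 7 chemokine genes that act mainly on lymphocytes and monocytes or keep tissues supplied with immune and stem cells: Cxcl9, Cxcl10 and Cxcl11, which encode ligands of the receptor CXCR3; Cxcl12 and Cxcl14, which are made in resting tissues; and Cxcl16 and Cx3cl1, which are made as membrane-bound proteins. They were chosen by symbol, as every probe set that names 1 of these genes and no other, which gave 16 probe sets out of 34945 that name 1 gene, and 7 genes out of 18193. RNA came from cultured fibroblasts (MEFs) prepared from C57BL/6 mouse embryos that were FAN +/+ (wild type) or FAN -/-. FAN, encoded by Nsmaf, couples the TNF receptor TNFR1 to neutral sphingomyelinase. All cells were kept without serum for 24 h; the untreated cultures had no addition, and the treated cultures had 8 h without serum and then 16 h with tumour necrosis factor (TNF) at 50 ng/ml in the same medium. Each of the 4 conditions was measured on 1 Affymetrix array, with 45101 probe sets. The sources used here do not give how the FAN -/- allele was made, nor whether separate embryos or cultures were used for each array.

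Chemokines are small secreted proteins that bind G protein-coupled receptors and guide cells along a gradient. The CXCR3 ligands are classical interferon-inducible genes; Cxcl10 can also be switched on through NF-kB, the transcription factor that TNF activates, whereas Cxcl9 depends more strongly on interferon-gamma. Cxcl12 binds CXCR4 and the scavenging receptor ACKR3 and is abundant in stromal fibroblasts, where it retains haematopoietic cells and lymphocytes. CXCL16 and fractalkine, the product of Cx3cl1, sit on the cell surface through a mucin stalk, bind CXCR6 and CX3CR1, and are released by the proteases ADAM10 and ADAM17. C57BL/6 mice are known not to make functional CXCL11, and the reference gene table (GRCm38.p6, C57BL/6J) lists Cxcl11 as a transcribed pseudogene. In that table Cxcl9, Cxcl10 and Cxcl11 lie close together on chromosome 5, with only Art3 listed between Cxcl9 and Cxcl10.

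Promoter windows from RefSeq (250 bases before to 50 bases after the annotated start) were held for 5 of the 7 genes; Cxcl11 and Cxcl16 had no entry. The 4 printed here are of the member with the largest TNF response (Cxcl10), its neighbour with a low signal (Cxcl9), a member that was higher with TNF (Cx3cl1) and one that was lower (Cxcl14). Capitals mark every match, on either strand, to 5 motifs: the core of the interferon-stimulated response element (ISRE, GAAA repeated after any 2 bases), the kappaB consensus bound by NF-kB, the GAS element bound by STAT factors (TTCNNNGAA), the AP-1 site (TGANTCA) and the TATA box (TATAAA).
Cxcl10 promoter (GRCm38.p6, chr5:92348840-92349139, minus strand): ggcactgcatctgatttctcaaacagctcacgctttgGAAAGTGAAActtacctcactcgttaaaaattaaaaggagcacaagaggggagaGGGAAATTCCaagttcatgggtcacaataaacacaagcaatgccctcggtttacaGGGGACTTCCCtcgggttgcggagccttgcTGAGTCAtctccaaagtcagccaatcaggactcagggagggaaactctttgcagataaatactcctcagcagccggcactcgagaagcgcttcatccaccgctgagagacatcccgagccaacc
Cxcl9 promoter (GRCm38.p6, chr5:92328030-92328329, minus strand): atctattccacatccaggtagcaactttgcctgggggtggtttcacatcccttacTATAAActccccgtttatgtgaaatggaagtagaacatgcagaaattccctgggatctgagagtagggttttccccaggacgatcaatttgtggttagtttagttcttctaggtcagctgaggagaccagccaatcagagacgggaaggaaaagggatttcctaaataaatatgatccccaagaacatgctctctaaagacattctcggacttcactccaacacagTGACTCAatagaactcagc
Cx3cl1 promoter (GRCm38.p6, chr8:94771930-94772229, plus strand): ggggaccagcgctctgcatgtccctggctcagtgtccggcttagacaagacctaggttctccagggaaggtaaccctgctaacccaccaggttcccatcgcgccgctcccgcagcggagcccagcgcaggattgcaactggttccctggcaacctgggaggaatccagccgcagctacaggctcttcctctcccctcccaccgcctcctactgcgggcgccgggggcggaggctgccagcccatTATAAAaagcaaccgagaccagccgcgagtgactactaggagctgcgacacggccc
Cxcl14 promoter (GRCm38.p6, chr13:56296502-56296801, minus strand): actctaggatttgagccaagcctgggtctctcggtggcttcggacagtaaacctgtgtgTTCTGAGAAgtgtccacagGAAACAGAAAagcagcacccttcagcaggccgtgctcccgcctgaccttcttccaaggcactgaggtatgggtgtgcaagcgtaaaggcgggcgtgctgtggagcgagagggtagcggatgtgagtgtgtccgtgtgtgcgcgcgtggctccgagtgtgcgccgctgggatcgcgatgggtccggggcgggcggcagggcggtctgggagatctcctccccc

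The Cxcl10 window held 1 ISRE core at -213 to -204 from the start, a kappaB match at -159 to -150 and a cluster of kappaB matches from -104 to -94, which overlap each other and are in part the same bases read on the other strand. It also held an AP-1 match at -74 to -68. An ISRE core occurred in 3.44% of 32851 promoter windows of this length and a kappaB match in 8.46%, and both together in 81 windows, or 0.247%. The Cxcl14 window held an ISRE core (-172 to -163) and a GAS match (-191 to -183), the latter a motif found in 8.30% of windows, but no kappaB match. The Cxcl9 window held an AP-1 match after the start (32 to 38) and a TATA box match far before it (-195 to -190). The Cx3cl1 window held a TATA box match at -6 to -1, and the Cxcl12 window held none of the 5 motifs. AP-1 matches occurred in 7.81% and TATA box matches in 13.6% of windows. These matches describe letters in a short window and say nothing of binding.

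**Figure D1:**
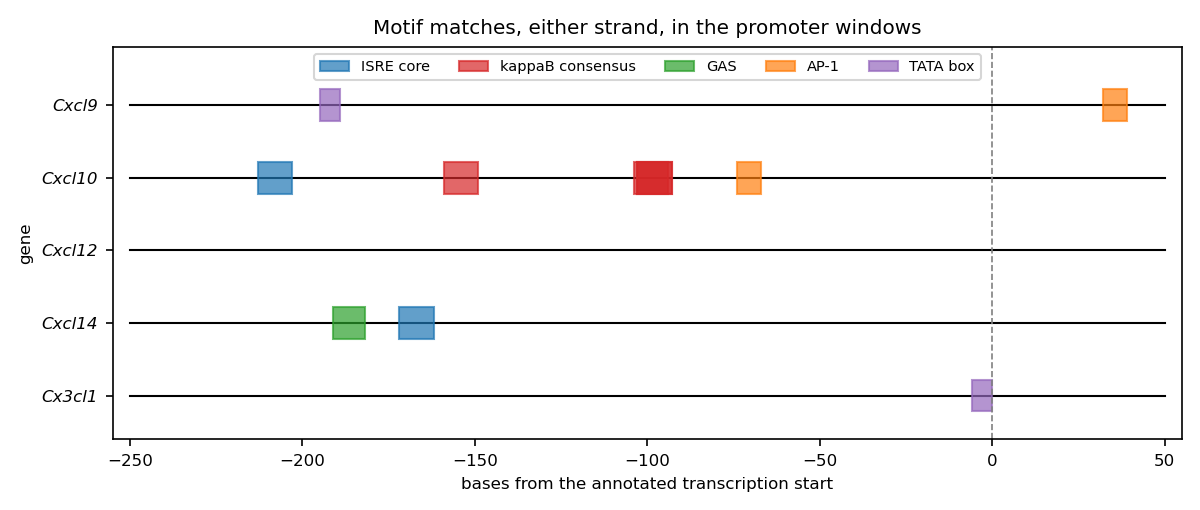
Positions of motif matches (coloured boxes) in the 5 promoter windows held for these genes, in bases from the annotated transcription start (dashed line). Cxcl10 is the window with both an ISRE core and kappaB matches, and Cxcl12 has no box.

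The arrays were alike in scale, with medians of 6.21 to 6.30 on the log2 scale of the deposited values and between 49.2% and 50.5% of probe sets above a floor of 6.27, the 50th percentile of all values; values under the floor were raised to it before differences were taken, so a fold from it is a bound. Groups follow the sample titles. The genotype entry of the labels contradicts the title for 2 samples, the TNF-treated FAN +/+ and the untreated FAN -/- array; it leaves the TNF groups as they are. Nsmaf itself was at 8.95 and 8.55 on the untreated and TNF-treated FAN +/+ arrays and at 7.91 and 7.48 on the FAN -/- arrays, which goes with the titles; whether its probe set lies in the deleted part is not known. All 10 fibroblast markers were above the floor on all 4 arrays. Of 10 macrophage and leukocyte markers 5 were above the floor on at least 1 array, with Ptprc, Cd68, Itgam, Adgre1 and Tyrobp under it on every array. In bulk RNA, fewer cells of a type and less RNA per cell cannot be told apart.

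No condition has a replicate, so "higher" and "lower" describe 1 array against 1 and carry no p-value, and at least 2-fold (1 on the log2 scale) is used as a mark of size. "Rose" and "fell" are kept for an additive limma fit of TNF and genotype over the 11817 genes that exceeded the floor on 2 or more arrays, with Benjamini-Hochberg adjustment over all of them. That fit has 2 arrays per treatment and per genotype and 1 residual degree of freedom. A gene's own error is thus the extent to which its TNF response differs between the genotypes. limma combines this with a prior drawn from all genes tested (3.52 degrees of freedom). The SE and p-values given for a gene therefore rest in large part on the spread of other genes. The fit called 186 genes higher and 135 lower with TNF (405 and 518 after centring each array on its median). The p-values measure the spread between these arrays, which may be technical.

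With TNF, the inducible members Cxcl10, Cxcl16 and Cx3cl1 rose, the representative probe sets of Cxcl12 and Cxcl14 were lower in both genotypes without passing the test, and Cxcl9 and Cxcl11 stayed at or near the floor. Thus 3 of the 5 members that could be tested rose (limma, adjusted p under 0.05), where 1.57% of all genes tested rose; none of the 5 fell at this threshold (2 did at an unadjusted p under 0.05), where 1.14% of all genes did. The median TNF effect of the 5 members was 2.07 log2, against -0.02 over all genes tested. By size alone, 3 of the 6 members above the floor on at least 1 array were at least 2-fold higher with TNF in FAN +/+ cells, against 2.2% of 12224 genes, and the same 3 were so in FAN -/- cells, against 1.35%. At least 2-fold lower were 0 of the 6 in FAN +/+ cells (1.92% of all genes) and 1, Cxcl14, in FAN -/- cells (1.07%).

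**Figure D2:**
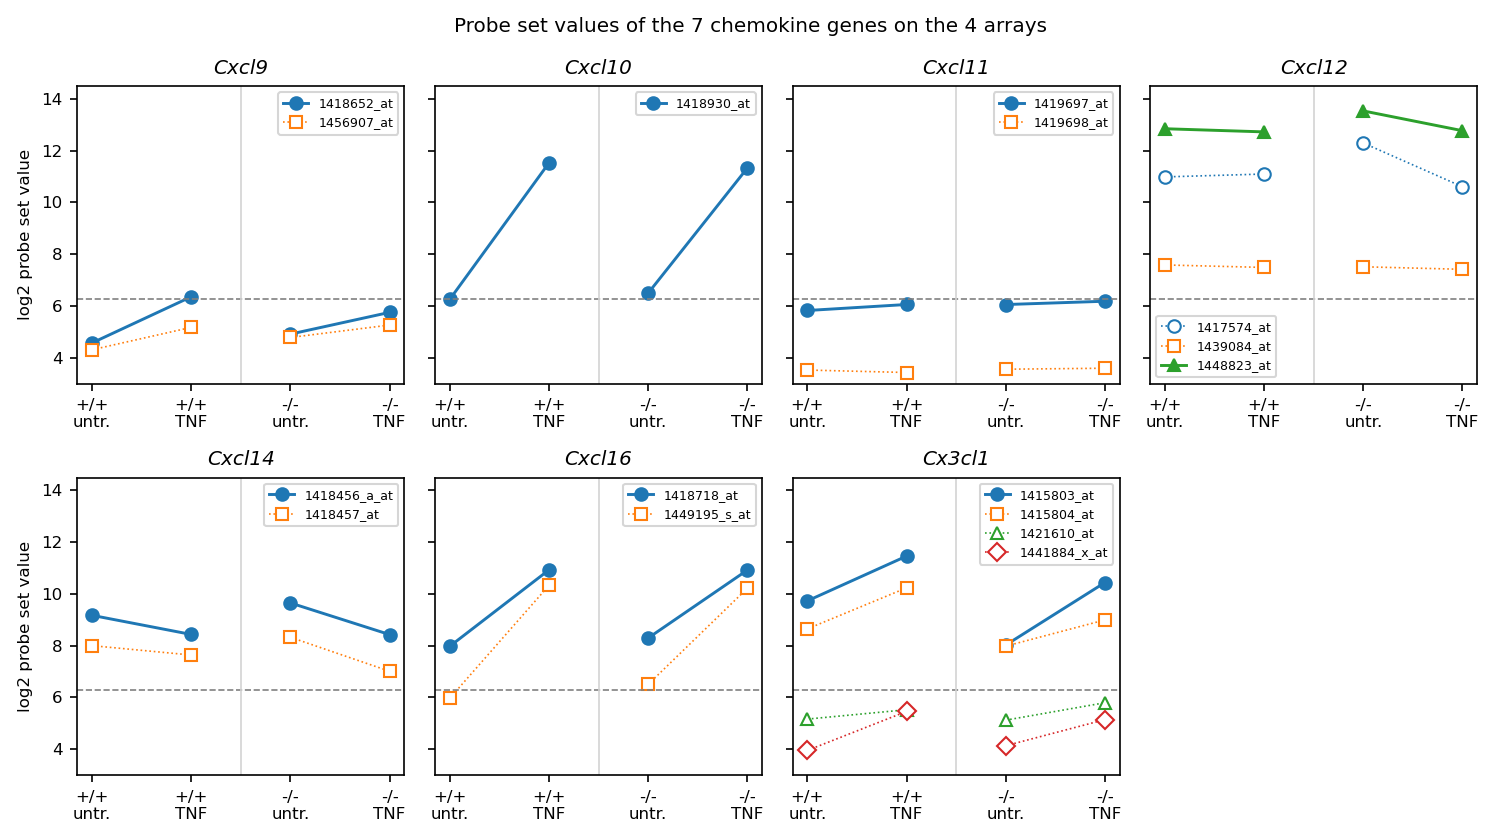
Deposited log2 values of all 16 probe sets on the 4 arrays (1 array per point; untr., untreated), a panel per gene, with the floor of 6.27 as a dashed line. Filled symbols mark the probe set of highest mean, which represents the gene; values are not comparable between probe sets. The Cxcl10, Cxcl16 and Cx3cl1 lines climb from untreated to TNF in both genotypes, and both Cxcl11 lines lie under the floor throughout.

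Among the CXCR3 ligands, Cxcl10 was the member with the largest response. Its single probe set read 6.25 on the untreated FAN +/+ array and 11.53 with TNF, and 6.49 on the untreated FAN -/- array and 11.32 with TNF. Both untreated values lay near the floor, the FAN +/+ one just under it, and both TNF values lay far above them. The response was at least 38.3-fold in FAN +/+ cells and 28.5-fold in FAN -/- cells, and in each genotype only 3 of 12224 genes had a larger one. Cxcl10 rose by 5.05 ± 0.15 log2 (SE; limma, adjusted p = 0.0049), with 2 of 2 TNF arrays above both untreated arrays. The genotypes differed little: the FAN -/- value was 1.17-fold higher without TNF and 1.15-fold lower in its presence, and the genotype effect in limma was 0.01 ± 0.15 log2 (adjusted p = 0.98). This small effect changed sign under other scalings and floors (-0.10 to 0.02).

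The neighbouring Cxcl9, another CXCR3 ligand, was barely detected. Its stronger probe set read 4.57 untreated and 6.36 with TNF in FAN +/+ cells, and 4.91 and 5.75 in FAN -/- cells. The value of the TNF-treated FAN +/+ array was thus the only one of the 4 above the floor, and by a small margin, so that the floored difference was 0.09 log2. Without a floor it was 1.78 log2 in FAN +/+ cells and 0.84 in FAN -/- cells. The second probe set, under the floor on every array, read 4.31 and 5.17 in FAN +/+ cells and 4.78 and 5.26 in FAN -/- cells, also higher with TNF in both. Values in this range could not be told from background here, and Cxcl9 was not part of the limma fit, which needs at least 2 arrays above the floor.

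Cxcl11, the pseudogene of this strain, lay under the floor on every array. Its first probe set read 5.82 and 6.05 in untreated and TNF-treated FAN +/+ cells and 6.05 and 6.18 in FAN -/- cells. The second ranged from 3.43 to 3.59. No difference between any of the arrays was measurable for it.

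Of the membrane-bound members, Cxcl16, which attracts CXCR6-bearing T cells and also takes up oxidised lipoprotein, was the next most responsive. Its stronger probe set read 7.98 untreated and 10.93 with TNF in FAN +/+ cells, and 8.29 and 10.92 in FAN -/- cells. The TNF arrays were nearly identical, and the untreated arrays lay well under them. This is a 7.73-fold and a 6.17-fold response, at ranks 26 and 22 of 12224 genes. Cxcl16 rose by 2.79 ± 0.13 log2 (SE; limma, adjusted p = 0.0091), and its genotype effect of 0.15 ± 0.13 log2 did not pass (adjusted p = 0.52). The second probe set, 1449195_s_at, read 5.97 and 10.33 in FAN +/+ cells and 6.50 and 10.21 in FAN -/- cells. It gave a larger response, at least 16.7-fold and 13.1-fold, and fitted on its own it rose by 3.89 ± 0.14 log2 (SE; limma over 20402 probe sets, adjusted p = 0.014). The suffix _s_at marks probe sets that may match more than 1 transcript, so the fold for this gene is known only to lie in a range.

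Cx3cl1, the gene of fractalkine, which binds monocytes and cytotoxic lymphocytes, was the only member that differed between the genotypes in the limma test. Its probe set of highest mean read 9.73 untreated and 11.46 with TNF in FAN +/+ cells, and 8.02 and 10.44 in FAN -/- cells. Within each treatment the FAN -/- array was the lower one, and within each genotype the TNF array was the higher one. The TNF response was 3.32-fold in FAN +/+ and 5.34-fold in FAN -/- cells, and Cx3cl1 rose by 2.07 ± 0.19 log2 (SE; limma, adjusted p = 0.021). In FAN -/- cells the value was 3.27-fold lower untreated and 2.03-fold lower with TNF, a genotype effect of -1.37 ± 0.19 log2 (SE; limma, adjusted p = 0.030). At least 2-fold lower in FAN -/- cells were 2.89% of all genes untreated and 2.64% with TNF, and 3.67% passed the limma test as lower, so 1 of 5 members is to be read against that share. At least 2-fold higher were 1.45% and 1.55% of genes, and 2.94% passed as higher, with 0 members among them (0 of 5 in limma at an unadjusted p under 0.05 as well). Of the 10 fibroblast markers, Lum, Dcn and Pdgfra were lower in FAN -/- cells by limma, and 0 were higher. The effects of these 3 were -4.97, -1.64 and -1.62 log2 (limma, adjusted p = 0.016, 0.035 and 0.011). At an unadjusted p under 0.05 limma had 5 of the 10 lower and 1, Thy1, higher. The summed signal of the 10 markers was 97278 untreated and 84352 with TNF in FAN -/- cells, against 112398 and 112707 in FAN +/+ cells. The part of these markers in the Cx3cl1 difference was not tested.

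The second measurable Cx3cl1 probe set, 1415804_at, kept the order of the arrays but not the sizes. It read 8.65 and 10.23 in FAN +/+ cells and 7.98 and 8.99 in FAN -/- cells, responses of 1.59 and 1.01 log2. The difference of the responses, FAN -/- minus FAN +/+, was 0.69 log2 by the first probe set and -0.57 by the second, so these probe sets do not settle in which genotype the response was larger. Fitted on its own the second gave a TNF effect of 1.30 ± 0.17 log2 and a genotype effect of -0.95 ± 0.17 log2, neither past the limma threshold (adjusted p = 0.061 and 0.064). The remaining 2 probe sets lay under the floor everywhere, at 5.12 to 5.79 and 3.95 to 5.46. The second of these, 1441884_x_at, still read higher with TNF by 1.51 log2 in FAN +/+ and 1.01 log2 in FAN -/- cells; the suffix _x_at marks probes that may match other transcripts.

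**Figure D3:**
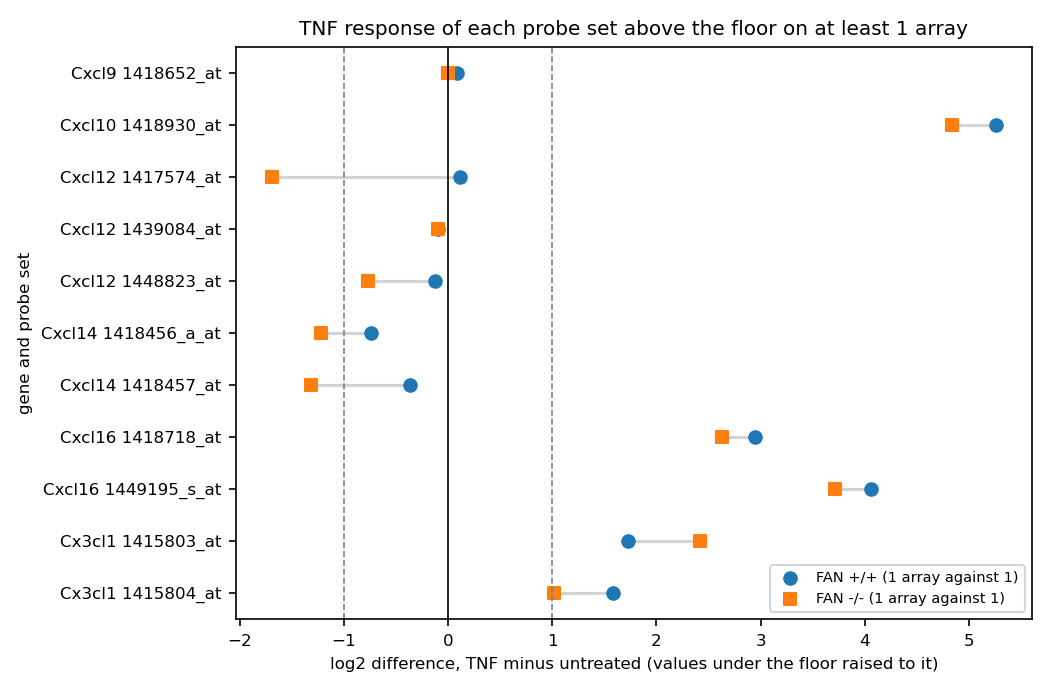
TNF response of the 11 probe sets above the floor on at least 1 array, as log2 difference TNF minus untreated (x axis) for FAN +/+ (circles) and FAN -/- cells (squares), 1 array against 1 and without error; dashed lines mark 2-fold. Cxcl10, Cxcl16 and Cx3cl1 lie to the right of 1 in both genotypes, and 1 Cxcl12 probe set has its symbols far apart, at 0.11 and -1.69.

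Neither homeostatic member passed the test for TNF. Cxcl12, which is abundant in stromal cells, had its strongest probe set at 12.85 untreated and 12.73 with TNF in FAN +/+ cells, and at 13.54 and 12.77 in FAN -/- cells. The untreated FAN -/- array stood above the other 3, which lay within 0.12 log2 of each other. Values were 1.09-fold lower with TNF in FAN +/+ and 1.70-fold lower in FAN -/- cells, and the limma effects of TNF (-0.44 ± 0.17 log2, adjusted p = 0.26) and genotype (0.37 ± 0.17 log2, adjusted p = 0.27) did not pass.

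The other Cxcl12 probe sets did not both have the untreated FAN -/- array highest. 1417574_at read 10.99 and 11.10 in FAN +/+ cells and 12.30 and 10.60 in FAN -/- cells, again with the untreated FAN -/- array highest. By this probe set Cxcl12 was 1.08-fold higher with TNF in FAN +/+ cells and 3.23-fold lower in FAN -/- cells, a difference of responses of -1.80 log2, against -0.64 for the strongest probe set; the difference was not tested. 1439084_at was nearly flat, from 7.41 to 7.58, and was highest on the untreated FAN +/+ array. The sources used here do not say which transcript ends the 3 probe sets cover.

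Cxcl14, a chemokine of resting skin and other epithelia and stroma, was lower with TNF by both of its probe sets in both genotypes. Its stronger probe set read 9.17 untreated and 8.43 with TNF in FAN +/+ cells, and 9.65 and 8.43 in FAN -/- cells; the TNF arrays were level and both untreated arrays lay above them. This is 1.67-fold lower in FAN +/+ and 2.33-fold lower in FAN -/- cells. The limma effect of -0.98 ± 0.16 log2 missed the threshold (adjusted p = 0.062), and it lay between 0.0055 and 0.50 under the alternative settings, passing in 4 of them. The second probe set read 8.00 and 7.64 in FAN +/+ cells and 8.32 and 7.01 in FAN -/- cells, or 1.29-fold and 2.48-fold lower. In FAN +/+ cells the summed signal of the macrophage and leukocyte markers was 858 untreated and 1305 with TNF. In FAN -/- cells it was 1691 and 1183. The sum was highest on the untreated FAN -/- array, as Cxcl12 and Cxcl14 were by their strongest probe sets. Lyz2 held the largest share there, at 778, against 237 to 347 on the other arrays. Without Lyz2 the sums were 621 and 958 in FAN +/+ cells and 913 and 873 in FAN -/- cells. That sum was highest with TNF in FAN +/+ cells, as was its brightest marker there, Cd14 (381, against 212 on the untreated FAN -/- array). Csf1r (238), Fcer1g (142) and Mpeg1 (93) were, like Lyz2, highest on the untreated FAN -/- array. The part of these markers in the Cxcl12 and Cxcl14 values was not tested.

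Both TNF arrays lay above both untreated arrays for Cxcl10, Cxcl16 and Cx3cl1, an arrangement found for 17.7% of 12224 genes, and below them for Cxcl12 and Cxcl14, found for 18.9%. The separation alone is therefore common on these arrays, and the sizes above carry the description. The difference of the TNF responses between the genotypes was under 2-fold for all 6 members by their representative probe sets, from -0.64 log2 for Cxcl12 to 0.69 for Cx3cl1; in this measure 0.794% of all genes exceeded 2-fold upwards and 0.818% downwards. No degree of freedom is left to test it.

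**Figure D4:**
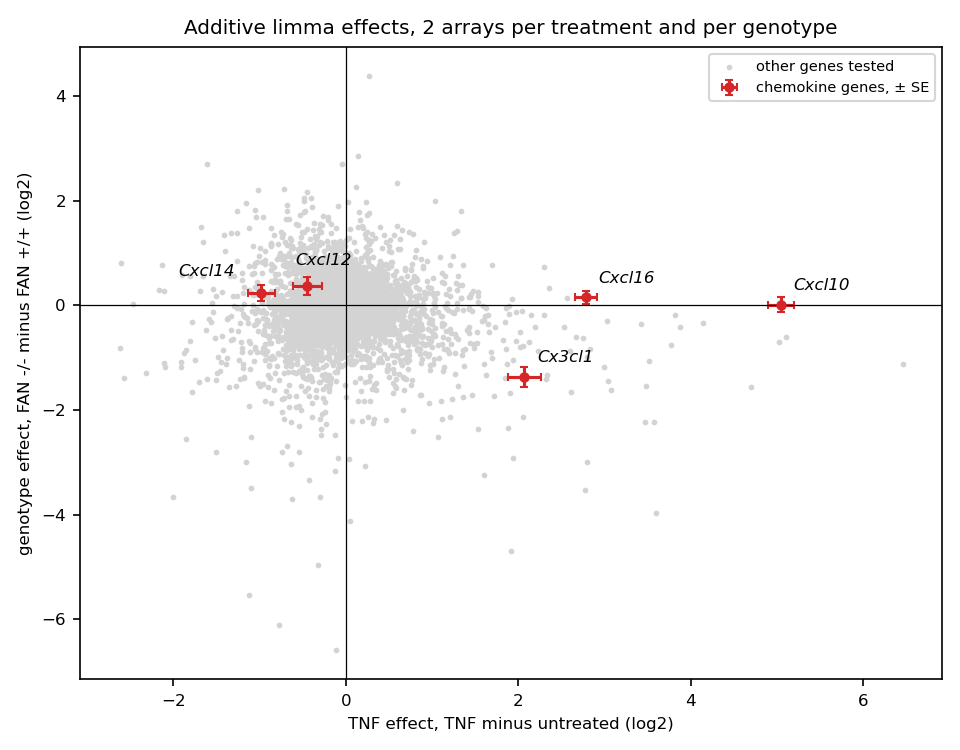
Genotype effect (y axis, FAN -/- minus FAN +/+, log2) against TNF effect (x axis, TNF minus untreated, log2) of the 5 members tested (red, bars ± SE) and of all other genes tested (grey), from the additive limma fit of 4 arrays. Cxcl10 and Cxcl16 lie far right at a genotype effect near 0, Cx3cl1 lies right and low, and Cxcl12 and Cxcl14 lie slightly left and above 0.

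The limma calls of these members depend on the fit. With all probe sets of a gene averaged, adjusted p was 0.052 for Cxcl10 and for Cxcl16 and 0.078 for Cx3cl1, and the Cx3cl1 effect shrank to 0.84 log2, since that mean takes in its probe sets at the floor. Without the filter on low values adjusted p was 0.34, 0.37 and 0.45, and with TNF as the only term 0.058, 0.12 and 0.66, in the same order. The Cx3cl1 genotype effect was likewise lost in these 3 fits (adjusted p = 0.064, 0.39 and 0.61).

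The genes with the nearest pattern over the 4 arrays were found by the root mean square distance of log2 values centred on each gene's mean, among 12223 other genes. The nearest to Cxcl10 were Ccl20 (0.36 log2), which encodes the CCR6 ligand, Cxcl2 (0.38), a neutrophil chemokine, and Ch25h (0.49), the enzyme that makes 25-hydroxycholesterol. No gene lay within 0.25 log2 of it. The nearest to Cxcl16 were Ifi47 (0.29), an interferon-inducible GTPase, and the monocyte chemokines Ccl8 (0.30) and Ccl7 (0.31). Nearest to Cx3cl1 were Col5a3 (0.17), a collagen V chain, Gch1 (0.26), the first enzyme of tetrahydrobiopterin synthesis, and Ifit1 (0.27), an interferon-induced antiviral gene. Each was lower in FAN -/- cells within each treatment, which follows from their choice by likeness to Cx3cl1. For Cxcl14 they were Prickle1, Pcsk6 and Hs6st1 (0.05 to 0.06), with 76 genes within 0.25 log2. For Cxcl12, Map4k5, Pth1r and Chodl (0.035 to 0.044) led 804 such genes. Chodl exceeded the floor only on the untreated FAN -/- array (7.02), so its nearness rests on values raised to the floor. Cxcl9 was nearly flat only because its values under the floor were raised to it. For it Padi6, Kcnk6 and Hgd led 9366 genes, so that its neighbours are arbitrary. With 4 arrays such distances describe likeness on these arrays only.

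**Figure D5:**
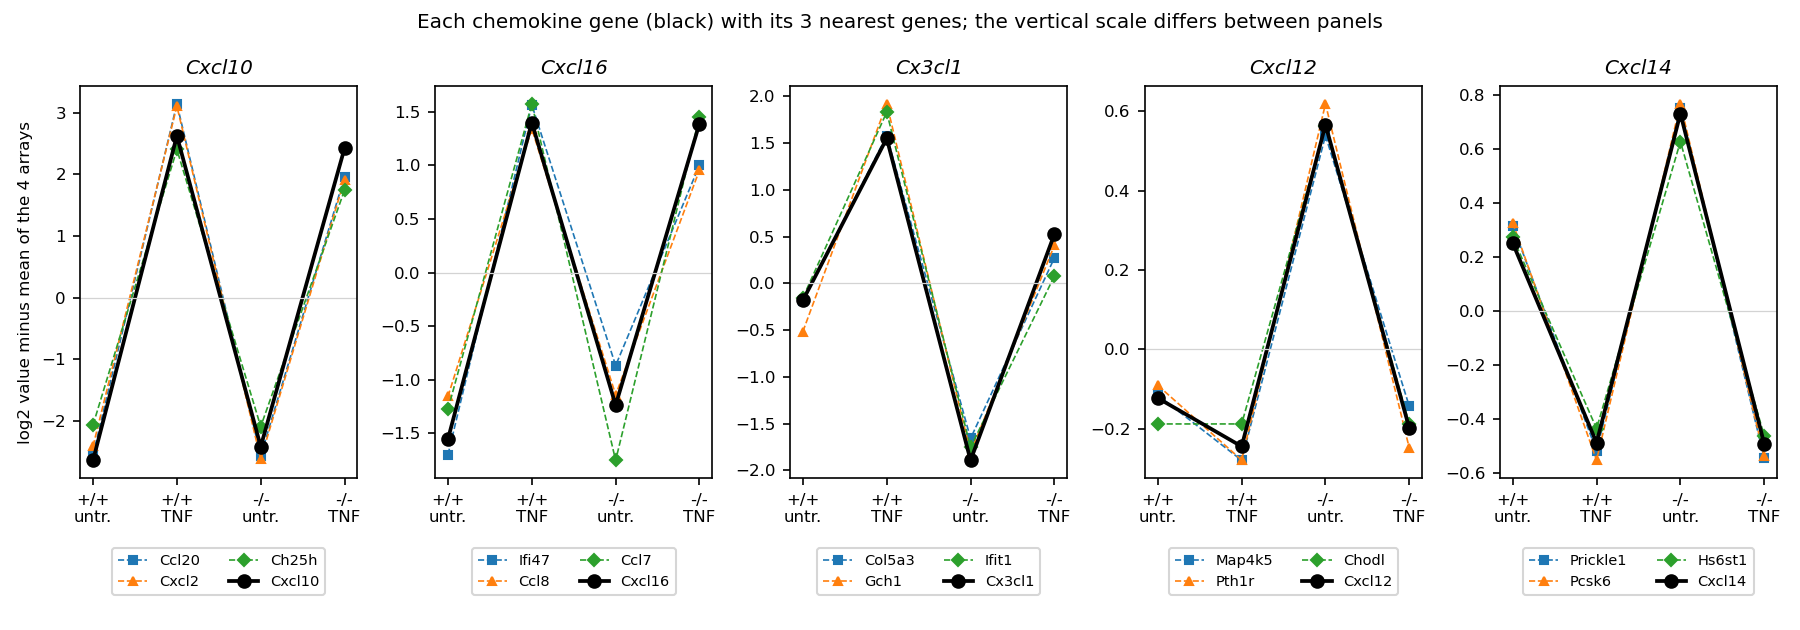
Log2 values minus the mean of the 4 arrays, values under the floor raised to it, for 5 members (black) and the 3 genes nearest to each (coloured, dashed), 1 array per point (untr., untreated). The vertical scale differs between panels: the members' ranges are 5.26 for Cxcl10, 2.95 for Cxcl16, 3.44 for Cx3cl1, 0.81 for Cxcl12 and 1.22 for Cxcl14.

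The receptors of these chemokines were mostly undetected in the fibroblasts. The list of 8 receptor genes also holds Ackr2 and Ackr4, whose products mainly bind other chemokines. Of the 8, Cxcr3, Cxcr4, Cxcr6, Cx3cr1 and Ackr2 lay under the floor on every array. The 3 tested in limma were Ackr1, Ackr3 and Ackr4, and 0 rose or fell with TNF at an adjusted p under 0.05. Over all genes tested, 1.57% rose and 1.14% fell. In limma 1 of the 3, Ackr1, was higher at an unadjusted p under 0.05. Ackr3, which encodes a scavenging receptor for CXCL12 and CXCL11, was clearly measured, at 10.48 and 10.66 in untreated and TNF-treated FAN +/+ cells and 10.47 and 10.50 in FAN -/- cells, with a TNF effect of 0.11 ± 0.10 log2 (SE; limma, adjusted p = 0.60). Ackr1 lay just above the floor on all arrays.

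Of 10 proteases and inhibitors that act on these proteins 8 were tested, and 2 rose with TNF: Mmp9 by 1.66 ± 0.21 log2 (SE; limma, adjusted p = 0.037) and the inhibitor Timp1, from 12.56 to 13.72 in FAN +/+ and from 12.35 to 13.20 in FAN -/- cells (adjusted p = 0.0245). In limma 0 fell (1 at an unadjusted p under 0.05). Of all genes tested, 1.57% rose and 1.14% fell. The sheddase gene Adam17 read 10.11 and 10.79 in FAN +/+ cells and 9.41 and 9.95 in FAN -/- cells, and was lower in FAN -/- cells by limma (-0.77 ± 0.10 log2, adjusted p = 0.028). It was 1 of the 8 to pass as lower, against 3.67% of all genes; at an unadjusted p under 0.05 limma had 4 of the 8 lower and 1 higher. Adam10 showed no such difference, at 11.21 to 11.36 on all arrays. Dpp4, whose product trims CXCR3 ligands and CXCL12, was under the floor.

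In the interferon pathway, 12 of 15 genes were tested. Ifnar2, Ifngr1, Ifngr2 and Irf1, or 4 of the 12, rose with TNF, against 1.57% of all genes tested. Of the 12, 0 fell in limma (1 at an unadjusted p under 0.05), against 1.14% of all genes. Irf1, a transcription factor that acts on interferon response elements, rose by 1.64 ± 0.12 log2 (SE; limma, adjusted p = 0.014), from 9.79 to 11.27 in FAN +/+ and from 9.44 to 11.25 in FAN -/- cells. The transcripts of the interferons themselves, Ifnb1 and Ifng, lay under the floor on all 4 arrays. By genotype, Ifnar2, Jak1 and Stat2 were lower in FAN -/- cells (limma effects of -0.59, -0.55 and -0.60 log2, adjusted p = 0.043, 0.041 and 0.048). These were 3 of the 12 tested, against 3.67% of all genes, and 0 passed as higher, against 2.94%. At an unadjusted p under 0.05 limma had 5 of the 12 lower and 1 higher. Among NF-kB factors, 7 of the 9 tested rose with TNF, against 1.57% of all genes tested, and 0 fell in limma (0 at an unadjusted p under 0.05). By genotype 0 of them differed in limma (3 were lower in FAN -/- cells at an unadjusted p under 0.05). Among all genes 3.67% passed as lower and 2.94% as higher. Nfkbie rose by 3.88, Tnfaip3 by 3.82 and Relb by 2.05 log2, and Nfkb1 and Chuk were not analysed here. Heparan sulfate proteoglycans hold chemokines near cells. Of 8 genes of these proteins or of enzymes that build their chains, 7 were tested. For TNF 0 of these passed in limma (unadjusted p was under 0.05 for 3 with higher and 2 with lower values). With TNF 1.57% of all genes tested rose and 1.14% fell. Sdc4 was lower in FAN -/- cells, by -0.94 ± 0.16 log2 (± SE, limma, adjusted p = 0.048). It was 1 of the 7 to pass as lower, against 3.67% of all genes, and 0 passed as higher. At an unadjusted p under 0.05 limma had 2 of the 7 lower and 0 higher. The median TNF effects were 0.11 log2 for the receptor list, -0.05 for the proteases and inhibitors and 0.54 for interferon signalling. For NF-kB factors the median was 1.12 and for the proteoglycan list 0.11. The median over all genes tested was -0.02.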

How the data were processed

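RNA of 4 MEF cultures, 1 per condition, was measured on 1-colour Affymetrix arrays. The authors deposited 1 value per probe set and array, read here as log2 because the values run from 2.79 to 14.40. MAS5 is the tool named, per the submitters' processing notes, and no version is stated. The sources used here do not give the normalization between arrays, so how far it compressed low values is unknown. Probe sets were named by the platform annotation of the array (34945 name 1 gene, 932 several, 9160 none); 34741 Entrez identifiers matched the reference gene table and 0 symbols changed.

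Arrays were used as deposited, since their trimmed means (2% at each end, linear scale) differed by 2.94%, under 5%. Values below a floor, the 50th percentile over all arrays (log2 6.27, or a signal of 77.0), were raised to it. A gene is its probe set of highest mean log2 value. The fits used limma 3.58.1 in R 4.3.3 (lmFit, eBayes with an intensity trend, prior degrees of freedom 3.52). A later run on simulated data took its variances from the fitted prior and held no genotype effect or interaction. It is therefore no check of the calls made here. Precision is limited by the number of arrays. Motifs were searched with Python 3.11.15.

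Named genes are the 7 members, Nsmaf, the 3 nearest patterns per member and up to 3 members of fixed pathway lists past the limma test or at least 2-fold in both genotypes. Beyond that rule, list genes under the floor, Ackr1, Ackr3, Adam10 and the fourth interferon gene, with the genotype differences of list genes, were named after their values were seen. Members, lists and rules were chosen with earlier results of these data known. Alternatives were other floors or none, 2 other scalings, the mean of all probe sets, each probe set on its own and a marker sum without Lyz2 (both chosen after seeing the data), no trend, no filter and a single model term. Markers of 5 cell types were examined: of the endothelial, epithelial and lymphocyte lists 2 of 6, 3 of 6 and 1 of 5 lay above the floor.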

Additional observations from a re-analysis of the deposited data

Results flagged for a closer look

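For several members the differences below had opposite signs in the groups compared, 1 array against 1; none of these contrasts was tested. For Cxcl14 by 1418456_a_at and Cxcl16 by 1418718_at the value with TNF was close to 0, so only the sign differs and no opposite movement is shown. By the probe set 1417574_at, Cxcl12 differed with TNF by 0.11 log2 in FAN +/+ cells and by -1.69 in FAN -/- cells, and between genotypes (FAN -/- minus FAN +/+) by 1.31 untreated and -0.49 with TNF. For Cxcl14 the genotype difference was 0.48 untreated and -0.0044 with TNF by 1418456_a_at, and 0.32 and -0.63 by 1418457_at. For Cxcl10 it was 0.22 untreated and -0.20 with TNF. For Cxcl16 it was 0.32 and -0.0097 by 1418718_at, and 0.23 and -0.11 by 1449195_s_at.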

How the results depend on the processing

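Every called difference of a member kept its direction under all alternatives run. Of the values recomputed for single members, 293 kept direction and side of the threshold, 16 lost a call, 7 gained one and 4, all of 1 uncalled effect, reversed. Averaging all probe sets left 0 members at least 2-fold lower in FAN -/- cells, untreated and with TNF, where Cx3cl1 was so before. The limma counts moved more. With the probe sets averaged, TNF gave 0 genes higher and 0 lower (988 and 1119 at an unadjusted p under 0.05) and 0 members higher (3 unadjusted), and genotype gave 92 and 106 genes with 0 members lower (1 unadjusted). Without the filter the limma counts were 0 and 0 for TNF (863 and 823 unadjusted) and 0 and 0 for genotype (1117 and 1063), with 0 members for either (3 higher with TNF and 1 lower by genotype unadjusted). With the tested factor as the only term limma called 0 and 0 genes for TNF (450 and 434 unadjusted) with 0 members higher (3 unadjusted), and 4 and 6 for genotype with 0 members lower (0 unadjusted). Lower genes with TNF numbered 225 with the floor at the 70th percentile, 208 with no floor and 212 with log2(value + 16), and centring gave 405 higher and 518 lower for TNF and 532 and 980 for genotype; in each of these 4 settings 1 member, Cxcl14, fell with TNF. The near-zero genotype effect of Cxcl10 turned negative with the floor at the 70th percentile (-0.10 log2), with log2(value + 16) (-0.0021), after quantile normalization (-0.023) and after centring (-0.037). Cxcl9 was at least 2-fold higher in FAN +/+ cells with the floor at the 30th percentile (1.24 log2) and in both settings without a floor (1.78 and 1.30). The cause of these changes was not tested. No paired analysis was possible because each condition has 1 array and the labels carry no replicate numbers. Values near the floor, those of Cxcl9 and Cxcl11 above all, cannot be told from background.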
